A study of Mus musculus with 24 samples.

Results

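Broad domains of histone H3 acetylated at lysine 9 (H3K9ac) are described here, as they were called in embryoid bodies with and without Gcn5. Peaks of 8 H3K9ac lists were merged wherever they shared at least 1 bp, and a merged region was called a broad domain when every list had a peak in it and the base pairs covered by peaks averaged at least 4500 over the 8 lists. The rule found 552 domains among 10171 regions present in all 8 lists and 26034 merged regions in all. It used the covered length of every library, so the length of the domains themselves is a description and not a finding.

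Embryonic stem cells of strain C57BL/6 were grown as embryoid bodies and harvested at day 5 (embryoid bodies are the aggregates in which such cells begin to differentiate). Chromatin was precipitated with the Millipore antibody 07-352. The fx/fx group (genotype Gcn5fx/fx, both alleles floxed) consisted of clones 4_1 and 6_1, and the null group (Gcn5-/-, both alleles lost) of clones 4_C2 and 6_C4. Each clone gave 2 libraries, and per the labels clones 4_1 and 4_C2 form one isolate pair, called pair 4 here, and clones 6_1 and 6_C4 the other, called pair 6. Each genotype thus rests on 2 clones. The series holds 24 samples, of which 16, made from total H3 or input DNA, were not used here.

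H3K9ac is laid down by acetyltransferases such as Gcn5 (gene Kat2a) and Pcaf, which work within large coactivator complexes, and it marks the nucleosomes around active gene starts. At most active genes it forms a short block beside the start, while at some genes, often those for cell identity regulators and heavily transcribed products, acetylation runs on into the gene body. In embryonic stem cells Gcn5 has been tied to Myc targets and, in embryoid bodies, to FGF signalling, the question in which the series was set.

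The sequence before the gene start is shown for 6 domains that carry the results below. Each run is the 200 bases before the annotated start, 5′ to 3′ on the gene's strand, from RefSeq (GRCm38.p6, the same primary sequence as mm10), with CpG dinucleotides in capitals. Tnrc18 and Bahcc1 are 2 of the widest domains, Phc1 and Ppp1r9b differed between the isolate pairs in opposite directions, and Mycn and Dusp6 are the Myc family and FGF feedback genes of the study's question. Their positions are chr5:142817663-142817862 (minus strand), chr11:120232747-120232946 (plus), chr6:122340228-122340427 (minus), chr11:94991012-94991211 (plus), chr12:12941837-12942036 (minus) and chr10:99263031-99263230 (plus), in the order in which they are listed.
Tnrc18: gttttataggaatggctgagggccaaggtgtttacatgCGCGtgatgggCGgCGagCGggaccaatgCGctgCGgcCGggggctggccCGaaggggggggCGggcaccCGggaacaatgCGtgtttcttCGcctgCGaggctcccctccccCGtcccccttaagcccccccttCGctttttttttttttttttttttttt
Bahcc1: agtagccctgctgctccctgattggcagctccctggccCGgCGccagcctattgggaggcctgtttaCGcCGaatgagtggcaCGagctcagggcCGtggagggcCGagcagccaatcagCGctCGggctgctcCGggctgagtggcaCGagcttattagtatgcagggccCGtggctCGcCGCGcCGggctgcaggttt
Phc1: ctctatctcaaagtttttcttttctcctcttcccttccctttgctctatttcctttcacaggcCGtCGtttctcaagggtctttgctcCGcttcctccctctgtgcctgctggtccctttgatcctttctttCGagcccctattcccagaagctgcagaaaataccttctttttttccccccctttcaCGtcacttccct
Ppp1r9b: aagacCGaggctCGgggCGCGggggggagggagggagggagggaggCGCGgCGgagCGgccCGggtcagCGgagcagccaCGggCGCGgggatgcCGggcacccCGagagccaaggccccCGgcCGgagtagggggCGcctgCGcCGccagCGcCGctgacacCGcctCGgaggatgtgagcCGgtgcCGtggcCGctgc
Mycn: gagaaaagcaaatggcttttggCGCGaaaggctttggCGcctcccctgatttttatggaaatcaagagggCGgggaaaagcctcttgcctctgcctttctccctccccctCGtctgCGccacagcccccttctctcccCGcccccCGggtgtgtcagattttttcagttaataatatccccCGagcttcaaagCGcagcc
Dusp6: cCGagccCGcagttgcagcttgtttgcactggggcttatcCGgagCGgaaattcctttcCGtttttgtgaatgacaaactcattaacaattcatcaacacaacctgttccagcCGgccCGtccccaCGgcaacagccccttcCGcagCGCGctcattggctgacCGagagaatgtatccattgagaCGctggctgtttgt
The stretch before Ppp1r9b holds 27 CpG in 200 bases and is 80% G or C, and the stretch before Phc1 holds 5 and is 48.5%. Tnrc18 and Bahcc1 hold 16 CpG each, Dusp6 13 and Mycn 10.

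Gene starts in domains and in other marked regions were richer in CpG, at the median, than all gene starts. Promoter sequences (250 bases before to 50 after a start) were matched for 626 of the 760 protein-coding genes with an end in a domain, and 787 annotated starts of 583 genes lay within domains. Their median G and C content was 64.3%, against 63.0% for 8996 starts in other regions of all 8 lists and 56.3% for all 21263 starts of the table. The median number of CpG per 300 bases was 25 in domains, 23 in other regions and 13 overall. Motifs were searched as exact letters on both strands. The E-box CACGTG, which Myc family and other basic helix-loop-helix proteins can bind, was in 11.8% of domain starts, 10.6% of starts in other regions and 7.84% of all. The GC box GGGCGG was in 68.1%, 71.2% and 46.2%, and the ETS-type CCGGAAG, which holds no other motif of this set, in 19.7%, 21.1% and 11.6%. The TATA box TATAAA was in 7.62% of domain starts, 5.19% of starts in other regions and 12.6% of all, and CCAAT was in 38.2%, 37.5% and 38.2%. These shares are descriptions and were not tested.

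The 8 libraries differed in the number and length of their peaks before any domain was considered. They held 12041 to 20809 peaks covering 21.8 to 44.3 Mb. The 4 libraries of pair 6 exceeded the 4 of pair 4 in both values (exact permutation over 70 splits, two-sided p = 0.0286, the smallest possible), whereas genotype gave p = 0.629 for peaks and p = 0.486 for covered length. The splits ignored the isolate pairs, so the pair difference widens the spread against which genotype was judged. Within pair 6 the null libraries covered 39.4 and 36.5 Mb and the fx/fx libraries 44.3 and 43.9 Mb. In pair 4 the null libraries covered 30.2 and 21.8 Mb and the fx/fx libraries 31.5 and 26.7 Mb. A genotype difference within pairs was not tested for these values. Covered lengths were therefore also compared after the log2 length of every region was centred on the median of its library. The lists give no peak heights, and read depth is unknown, so that more acetylation, more cells carrying it and deeper sequencing cannot be told apart in a longer peak.

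Across the domains the mean covered length had a median of 5159 bp and ran from 4502 to 13460 bp, and the median of the other regions was 2244 bp. Just inside the threshold were Zfand5 (4505 bp), Rabggtb (4504.5 bp), Phf21b (4504 bp) and Btf3l4/Txndc12 (4502 bp). Just outside were Cops5/Cspp1 (4499 bp), Lsm14a (4498 bp), Fem1b (4496 bp) and Tmem107 (4496 bp). The cutoff lies within a continuous distribution. In single libraries, the median domain covered 4907.5 and 4563.5 bp in clone 4_1, 4794 and 3933.5 bp in 4_C2, 6247 and 6423.5 bp in 6_1, and 5761.5 and 5653 bp in 6_C4. Replicate 2 of 4_C2 was lowest, and the libraries of pair 6 were all above those of pair 4. Domains of at least 4500 bp in the library itself numbered 172 to 367 in pair 4 and 490 to 540 in pair 6.

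**Figure D1:**
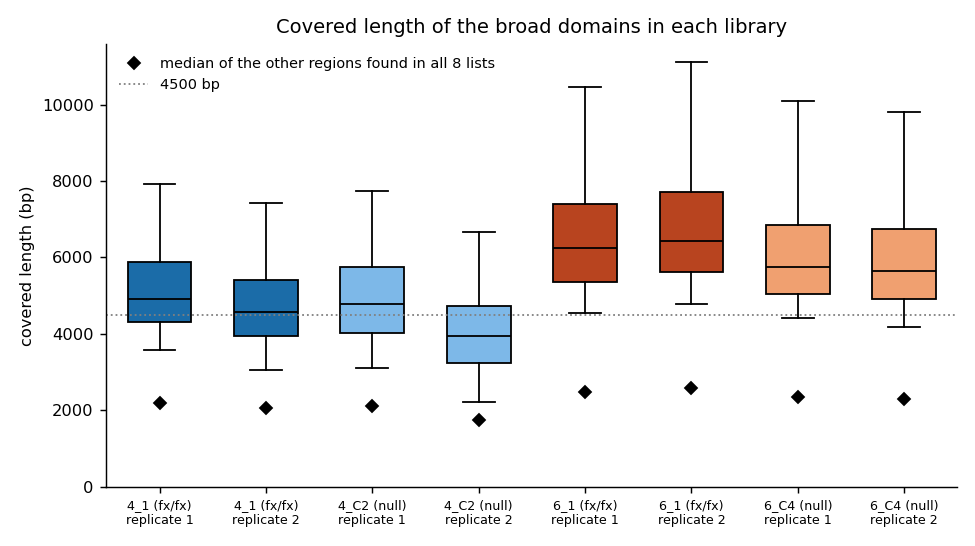
Covered length (bp) of the 552 domains in each library, as boxes with the median and quartiles and whiskers from the 5th to the 95th percentile, with diamonds for the median of the other 9619 regions and a dotted line at 4500 bp. Domain medians run from 3933.5 bp in replicate 2 of 4_C2 to 6423.5 bp in replicate 2 of 6_1.

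The widest domains lay at genes of varied function, and not all were wide through the same libraries. The first by mean length spanned the ends of Ifi30, a lysosomal thiol reductase, Pik3r2, a regulatory subunit of phosphoinositide 3-kinase, and Mast3, a kinase (chromosome 8, 70764352 to 70782320, mean 13460 bp). It covered 13001 and 11144 bp in 4_1, 11278 and 5976 bp in 4_C2, 17630 and 16964 bp in 6_1, and 16110 and 15573 bp in 6_C4. Its pair 4 and pair 6 values did not overlap, which in base pairs held at 49.1% of domains and 29.7% of all regions with pair 6 above. The domain at 4933440N22Rik (chromosome 6, 117903525 to 117921364, mean 12327 bp) was also split in base pairs, with 8512 to 9455 bp in pair 4 and 14235 to 17840 bp in pair 6. After centring, the pair difference passed at 4933440N22Rik (limma adjusted p = 0.0164) and not at Ifi30/Pik3r2/Mast3 (limma adjusted p = 0.0851).

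At some other wide domains the pairs overlapped or lay close. Bahcc1, which encodes a chromatin reader with a BAH domain (chromosome 11, 120226672 to 120242313, mean 13047 bp), covered 11540 and 11289 bp in 4_1, 14216 and 13229 bp in 4_C2, 12963 and 13970 bp in 6_1, and 12687 and 14479 bp in 6_C4. Both 4_1 libraries were below the other 6, and the groups overlapped for genotype and pair. Tnrc18, also a chromatin-associated protein gene (chromosome 5, 142811867 to 142824478), covered 11341 and 10937 bp in 4_1, 11355 and 11582 bp in 4_C2, 11601 and 11302 bp in 6_1, and 12233 and 11280 bp in 6_C4. Malat1, the abundant noncoding RNA of nuclear speckles, with the small RNA Mascrna processed from its end (chromosome 19, 5796237 to 5808312), covered 10167 and 10136 bp, 10009 and 10062 bp, 10170 and 12066 bp, and 11260 and 10966 bp in the same order of clones. Apart from the 12066 bp of replicate 2 of 6_1, its fx/fx libraries lay within 10136 to 10170 bp. Among the rest of the 15 widest were the corepressor gene Ctbp2 (mean 10630 bp), Dido1/Gid8 (10926 bp), the deacetylase gene Sirt7 with Mafg (10471 bp), Apobec1 with the TGF-beta family gene Gdf3 (10250.1 bp), and the histone methyltransferase gene Setd1b with Rhof (10054 bp).

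**Figure D2:**
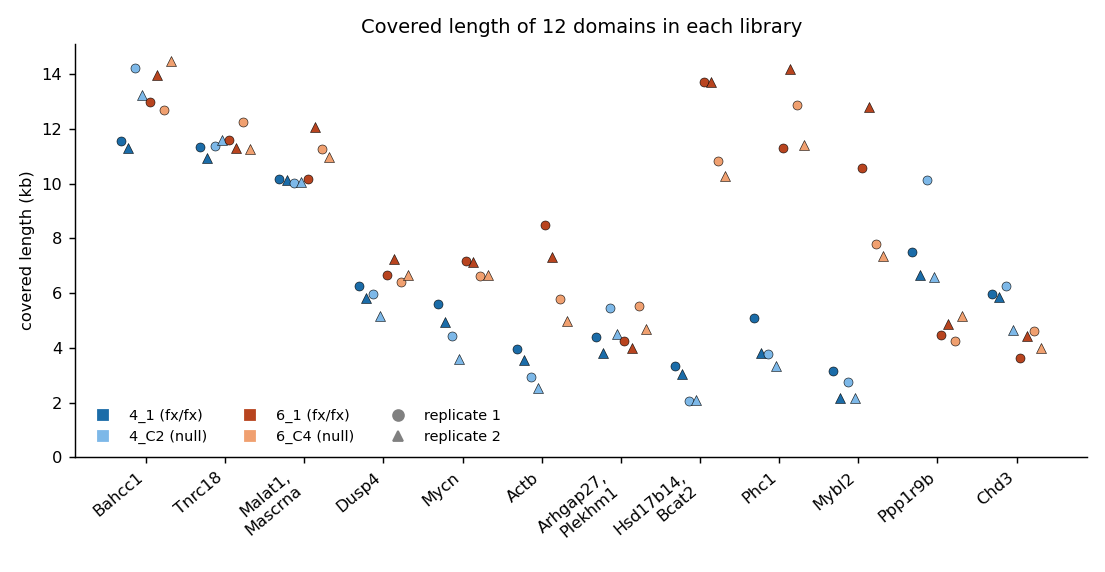
Covered length (kb) at 12 domains in each of the 8 libraries, with colours for clones and circles and triangles for replicates 1 and 2. Tnrc18 lies between 10937 and 12233 bp in every library, whereas Hsd17b14/Bcat2 covered 2064 to 3326 bp in pair 4 and 10266 to 13718 bp in pair 6.

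The domains sat mainly at protein-coding genes and extended into them. A protein-coding gene end lay within 1000 bp of 502 domains (90.9%), against 85.3% of the other regions. A further 31 domains lay inside a protein-coding gene and 19 at the end of another kind of gene, and none lay outside genes, where 162 of the other regions did. One protein-coding gene was reached by 286 domains, 2 by 173, 3 by 38 and 4 or more by 5. The domain with the most gene ends held 10 ends of 5 histone genes, H2ac8, H2bc8, H2bc7, H2ac7 and H3c4 (chromosome 13, 23569342 to 23577682, mean 7200 bp). Such genes are near copies of each other, and the sources used here do not say how reads shared between copies were placed. Domains without any protein-coding gene end nearby included 2 inside Mpp7, a polarity scaffold gene, the wider of which averaged 10321 bp.

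Acetylation reached farther downstream of the start than upstream. In 212 domains with a single annotated start, the median extent was 1867 bp upstream and 3479 bp downstream. The downstream side was the longer in 166 of them (78.3%), as it was in 89.1% of other regions with a single start. Per library, median downstream extents were 2390.5 to 3088.5 bp in pair 4 and 3537.5 to 4153.5 bp in pair 6, and upstream extents were 1345.5 to 1649.5 bp and 1901 to 2101.5 bp. At 4000 bp past the start, 16.3% of these domains were covered in 4_1 and 16.0% in 4_C2, against 49.1% in 6_1 and 37.7% in 6_C4. At 2000 bp before the start the shares were 32.1%, 27.1%, 51.4% and 43.6%. Both sides were thus longer in pair 6. Among single domains, the zinc finger repressor gene Zbtb7a had 9148 bp downstream against 1644 bp upstream, and Mnt, which encodes a Max partner that opposes Myc, 8485 bp against 2054 bp. Others were longer upstream, such as Apobec1 in the Apobec1/Gdf3 domain (8355 bp upstream, 2938 bp downstream) and Mlx in the Hsd17b1/Coasy/Mlx domain (5908 bp and 1524 bp). These domains reached 2 and 3 protein-coding genes but held 1 annotated start each. The promoter table holds 17492 of 21900 protein-coding genes, so domains with a single annotated start can hold starts that it lacks.

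**Figure D3:**
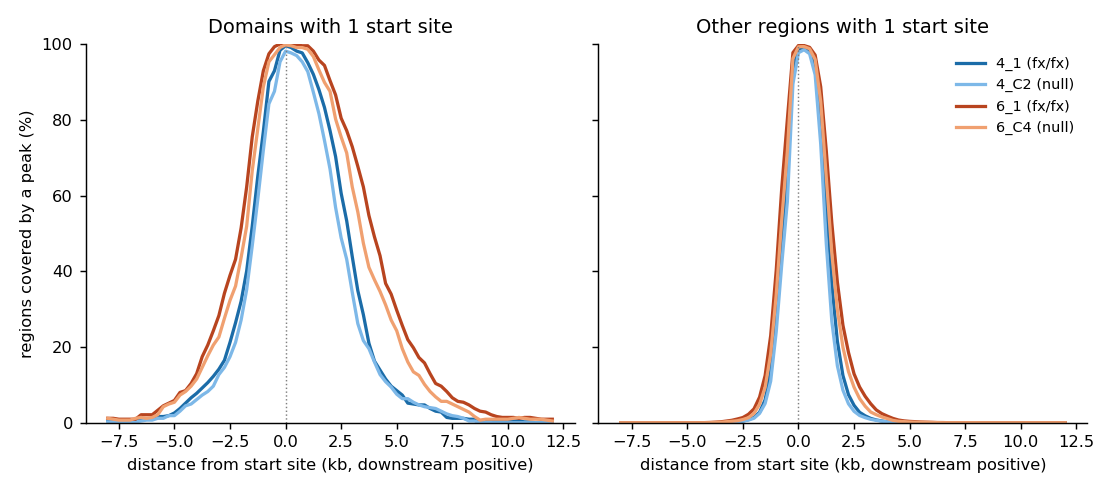
Share of regions covered by a peak (percent) against distance from the start (kb, downstream positive), with one line per clone, the mean of its 2 libraries, for the 212 domains with a single start on the left and other regions with a single start on the right. At 4000 bp downstream the domains are covered at 49.1% in 6_1 and 37.7% in 6_C4, against 16.3% in 4_1 and 16.0% in 4_C2.

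A domain was often several peaks in one list and a single peak in another. In single libraries, 58.7% to 77.5% of the domains were covered by 1 peak, and only 135 domains (24.5%) were 1 peak in all 8 lists, against 86.4% of other regions. A further 21 were 1 peak in no list. The most split was the wider domain inside Mpp7, with 3.125 peaks per list on average, followed by Ifi30/Pik3r2/Mast3 and the histone gene domain of H2ac8 with 2.875 each. The gaps between peaks of the same list within a domain had a median of 376 bp (1802 gaps). Bases shared by all 8 lists made up a median of 51.4% of a domain and 58.6% of another region. Only Gm51528 and the domain inside Myo10 had no base common to all 8 lists. The SD of centred log2 length over the 8 libraries was 0.205 at the median domain and 0.172 at the median other region, and within clones it was 0.153 and 0.142. The steadiest was Dusp4, a phosphatase that switches off ERK, with an SD of 0.0440. Gm51528 (SD 1.51) and the domain inside Myo10 (1.42), an unconventional myosin of filopodia, varied most.

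The comparison of null with fx/fx libraries asks where H3K9ac changes on loss of Gcn5. No domain passed the threshold (0 of 552 in limma over all 10171 regions, Benjamini-Hochberg adjusted p under 0.05, where 0% of all regions passed), and the lowest adjusted p of a domain was 0.625. At an unadjusted p under 0.05, 25 domains were narrower in null libraries (4.53%, background 3.22%) and 22 wider (3.99%, background 3.72%), shares near those of all regions. Without centring these counts were 82 and 2 (0.362% wider, background 0.187%). No background was computed for the narrower count. All regions together were then shorter in null libraries (median log2 −0.12), so the 82 cannot be read as particular to the domains. The median log2 difference in centred length was −0.01 over the domains and 0.02 over all regions tested, and 283 of 552 domains were below 0. Summed over the domains, the fx/fx libraries had 3.27 ± 0.576 Mb and the null libraries 2.98 ± 0.552 Mb (SD, n = 4 each), a difference of −0.298 Mb. It was −0.498 Mb without replicate 2 of 4_1 and −0.460 Mb without replicate 1 of 6_C4, and −0.159, −0.110 and −0.0670 Mb without replicate 1 of 6_1, replicate 2 of 6_1 and replicate 2 of 4_C2. These means and SDs pool the isolate pairs, so leaving out 1 library also shifts the balance between pairs. By library the sums were 2.90 and 2.67 Mb in 4_1 and 2.78 and 2.28 Mb in 4_C2. In pair 6 they were 3.69 and 3.84 Mb in 6_1 and 3.46 and 3.38 Mb in 6_C4. Without centring, the median difference of the domains was −0.14 and that of all regions −0.12.

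Centred lengths of the 4 null libraries all lay above those of the 4 fx/fx libraries at 13 domains (2.36%, background 1.51%) and all below at 8 (1.45%, background 0.954%). In base pairs they lay all above at 1 domain (0.181%, background 0.0492%) and all below at 6 (1.09%, background 2.42%). The lowest p belonged to the domain of Arhgap27, a GTPase-activating protein gene, and Plekhm1, a lysosomal trafficking gene (chromosome 11, 103359126 to 103365248). It covered 4385 and 3827 bp in 4_1, 5458 and 4490 bp in 4_C2, 4242 and 3979 bp in 6_1, and 5530 and 4685 bp in 6_C4. The null libraries were all longer here, with a log2 difference of 0.43 ± 0.09 (SE), which did not pass (limma adjusted p = 0.625). Mef2d, a transcription factor of muscle and neural cells, covered 3844 and 3629 bp in 4_1, 5245 and 4255 bp in 4_C2, 4898 and 6147 bp in 6_1, and 5800 and 5867 bp in 6_C4. Its groups overlapped in base pairs, and its log2 difference was 0.35 ± 0.10 (adjusted p = 0.714). Next in order were Myadm (0.30), Npepps (0.40) and Git1 (0.56), none of which passed.

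Among domains shorter in null libraries, Actb, the cytoplasmic actin gene (chromosome 5, 142902114 to 142910935), covered 3955 and 3564 bp in 4_1 and 2938 and 2544 bp in 4_C2. In pair 6 it covered 8492 and 7319 bp in 6_1 and 5800 and 4978 bp in 6_C4. Null libraries were the shorter within each pair in base pairs, and the centred log2 difference was −0.37 ± 0.09 (SE, limma adjusted p = 0.714). The domain of Mrpl58 and Atp5h, genes of the mitochondrial ribosome and ATP synthase, covered 5729 and 5856 bp in 4_1, 3160 and 2520 bp in 4_C2, 5596 and 6809 bp in 6_1, and 4882 and 5043 bp in 6_C4. All 4 null values lay below all 4 fx/fx values, and the log2 difference of −0.54 ± 0.14 did not pass either (adjusted p = 0.714). Hsd17b14/Bcat2 (−0.36) and Thap2/Zfc3h1 (−0.35) had the same adjusted p.

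**Figure D4:**
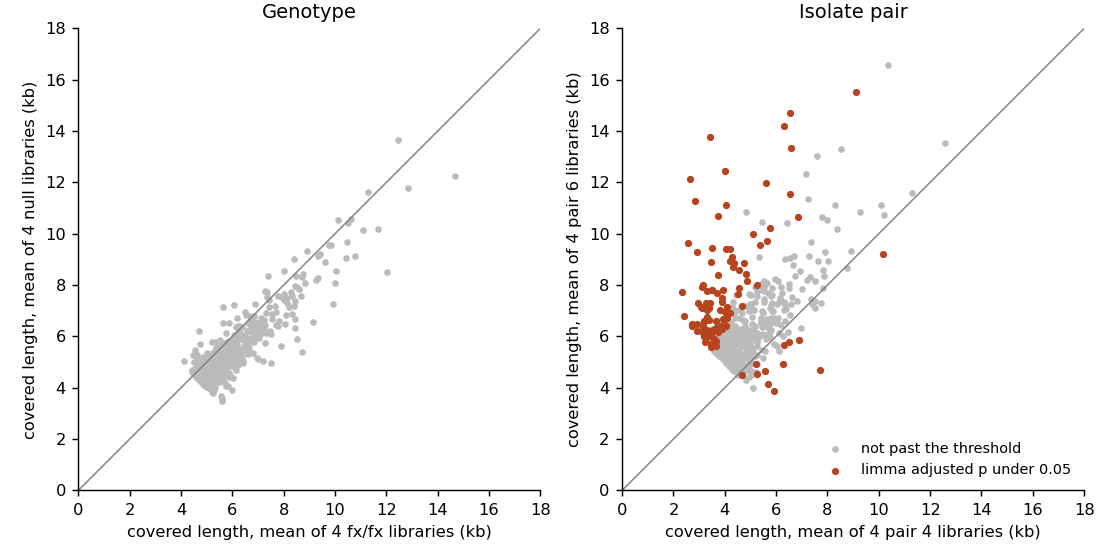
Mean covered length (kb, not centred) of each of the 552 domains, null against fx/fx on the left and pair 6 against pair 4 on the right, with the diagonal of equal length and domains past the limma threshold in red. No domain passed for genotype, and 108 passed between pairs, of which 96 were wider in pair 6 after centring.

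Of the genes in the study's question, Mycn and 7 FGF or ERK genes had domains, and neither Myc nor Kat2a did. The 7 were Spry2, Dusp4 and Dusp6, feedback inhibitors of receptor tyrosine kinase and ERK signalling, Ier2, Jund and Junb, immediate early genes, and Fgf11, an intracellular FGF family member. Mycn (chromosome 12) covered 5614 and 4961 bp in 4_1, 4450 and 3581 bp in 4_C2, 7163 and 7149 bp in 6_1, and 6639 and 6666 bp in 6_C4. Spry2 covered 6874 and 6331 bp, 5578 and 4776 bp, 7191 and 7095 bp, and 6886 and 6732 bp in the same order of clones. In both, null libraries were below the fx/fx libraries of their pair in base pairs. On that scale all regions together were shorter in null libraries (median log2 −0.12), and the share of regions with the same order was not computed. After centring, the differences were −0.12 at Mycn and −0.08 at Spry2 (limma adjusted p = 0.783 and 0.855). Dusp6 covered 4770 and 6250 bp, 4561 and 4485 bp, 5219 and 6308 bp, and 5862 and 4980 bp, so its genotypes overlapped. Dusp4 covered 6264 and 5833 bp, 5959 and 5168 bp, 6661 and 7227 bp, and 6402 and 6645 bp. After centring, the log2 differences of the 8 genes between genotypes ran from −0.16 to 0.05 with limma adjusted p from 0.783 to 0.963. Of the 32 genes of FGF-ERK response and feedback with a region in all 8 lists, 6 lay in a domain.

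Of the immediate early genes, Jund covered 4820 and 4085 bp in 4_1, 4817 and 2355 bp in 4_C2, 7312 and 7508 bp in 6_1, and 6704 and 6308 bp in 6_C4. Its pairs did not overlap, and of the 8 genes it was the only one called between pairs (1 of 8, against 19.6% of all domains and 6.83% of all regions, log2 0.58 ± 0.15, SE, limma adjusted p = 0.0487). Its pair 4 lengths of 4085 and 2355 bp were below the 4500 bp of the rule, so this p-value does not stand apart from the rule. Ier2 covered 6520 to 6972 bp in pair 4 and 7036 to 7941 bp in pair 6, without overlap, but its centred difference was −0.15 and did not pass (adjusted p = 0.286). Junb covered 3464 to 5614 bp in pair 4 and 5367 to 7017 bp in pair 6, and Fgf11 4756 to 6342 bp and 5764 to 6858 bp, so both overlapped.

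Whether the genotype difference itself differed between isolate pairs was tested as an interaction. No domain passed (0 of 552 in limma, background 0%), with 25 lower and 22 higher in pair 6 at an unadjusted p under 0.05 (backgrounds 3.89% and 2.76%). The lowest adjusted p, 0.208, was shared by Slc7a5, the large neutral amino acid transporter gene, and the domain inside Myo10. Without replicate 1 of 4_C2, 1 domain passed, that inside Myo10.

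Between isolate pairs, 96 domains were wider in pair 6 (17.4%, background 4.32%) and 12 narrower (2.17%, background 2.52%), by limma with Benjamini-Hochberg adjustment over all regions and genotype as a covariate. The median log2 difference was 0.11 over the domains and −0.02 over all regions tested. Together these 108 domains were 19.6% of all (background 6.83%). At an unadjusted p under 0.05, 183 were wider (33.2%, background 12.6%) and 52 narrower (9.42%, background 13%). Centred lengths of all 4 libraries of pair 6 lay above all 4 of pair 4 at 133 domains (24.1%, background 7.13%) and below at 41 (7.43%, background 9.69%). In base pairs they lay above at 271 (49.1%, background 29.7%) and below at 2 (0.362%, background 0.324%). The rule bears on this contrast, because it averages base pairs and the libraries of pair 6 had the longer peaks. Domains chosen instead by mean centred log2 length, as many in number, gave 83 wider and 12 narrower with a median of 0.07.

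The pair comparison depended on the scaling between libraries. With quantile normalization, which makes the length distribution of every library the same, 58 domains were wider, 37 narrower and the median was −0.02, so the share of called domains that were wider went from 88.9% to 61.1%. Under it 10.5% of domains were wider and 6.70% narrower, against 3.09% wider and 257 narrower among the 9619 other regions. Without centring the median was 0.38 (all regions 0.25). Leaving out 1 library of pair 6 left 53 to 63 domains wider (59 and 63 without replicates 1 and 2 of 6_1, 53 and 63 without those of 6_C4), and leaving out any library left 2 to 6 narrower. Peaks were also counted at marker genes, where the lists of pair 6 held more peaks in all (means of 19017 and 13891 in pair 4). Of 35 pluripotency genes, 19 to 28 had a peak per library in pair 4 and 30 to 33 in pair 6. Of 22 primed epiblast genes 12 to 19 and 20 to 21 had one, and of 31 endoderm genes 12 to 21 and 20 to 23. Of 19 fibroblast markers, which feeder cells would carry, 3 to 8 had one in pair 4 and 6 to 9 in pair 6. The fibroblast counts of the pairs thus overlapped, as did the endoderm counts. Among the fibroblast genes, Ccn1, Col5a1 and Fn1 had a peak in all 8 lists, Ccn2 in 7, Thbs1 and Twist2 in 6 and Vim in 4. Tagln and Thy1 had one in 3 lists, and Col1a1, Col1a2, Lox and Pdgfrb in 1. Acta2, Col3a1, Dcn, Lum, Postn and Prrx1 had none in any list, nor did 2 of the pluripotency genes, Esrrb and Lifr. The part of other cell types in the result was not tested.

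The domains below are those with the largest pair differences, so short lengths in pair 4 follow from the ranking. Hsd17b14/Bcat2, Phc1 and Mybl2 averaged 2632.5, 4005 and 2566 bp in pair 4, below the 4500 bp of the rule. Gm51528, the domain inside Myo10 and Slc7a5 averaged 2857.5, 3405 and 2911 bp there. These are members only through their lengths in pair 6, so their p-values for this contrast do not stand apart from the rule. Hsd17b14, a steroid dehydrogenase gene, and Bcat2, a mitochondrial branched-chain aminotransferase gene (chromosome 7, 45565214 to 45579442), covered 3326 and 3057 bp in 4_1, 2064 and 2083 bp in 4_C2, 13718 and 13699 bp in 6_1, and 10839 and 10266 bp in 6_C4. The pairs were far apart, with a log2 difference of 1.96 ± 0.09 (SE, limma adjusted p = 2.2e-05). Phc1, a Polycomb repressive complex gene (chromosome 6, 122332120 to 122346289), covered 5079 and 3829 bp, 3784 and 3328 bp, 11318 and 14170 bp, and 12861 and 11410 bp in the same order. All pair 6 libraries were above all of pair 4, and the difference was 1.38 ± 0.11 (adjusted p = 0.000256). Mybl2, a cell cycle transcription factor gene (chromosome 2, 163050767 to 163064057), covered 3159 and 2179 bp, 2743 and 2184 bp, 10585 and 12803 bp, and 7806 and 7360 bp. It differed by 1.63 ± 0.14 (adjusted p = 0.000291).

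At some domains the clones of pair 4 also stood apart from each other. Gm51528 (chromosome 8, 33910758 to 33924535) covered 6339 and 3361 bp in 4_1, 1072 and 658 bp in 4_C2, 12192 and 13007 bp in 6_1, and 9861 and 9994 bp in 6_C4 (log2 2.24 ± 0.38, limma adjusted p = 0.0106). The domain inside Myo10 (chromosome 15, 25752137 to 25766799) covered 6135 and 4987 bp, 1670 and 827 bp, 14048 and 14466 bp, and 13479 and 13011 bp (2.17 ± 0.37, adjusted p = 0.0113). In both, 4_C2 was the shortest clone and 6_1 the longest. Slc7a5 was also shortest in 4_C2, with 3957 and 4394 bp in 4_1, 1799 and 1494 bp in 4_C2, 9238 and 9059 bp in 6_1, and 10385 and 8510 bp in 6_C4 (1.56 ± 0.24, adjusted p = 0.00727). Sema4b, a semaphorin gene (1.47 ± 0.13, adjusted p = 0.000301), and the domain inside H13, the signal peptide peptidase gene (1.36 ± 0.23, adjusted p = 0.0114), completed the 8 largest. All 8, kept as members chosen on all libraries, passed when any 1 library was left out. Other domains that were wider in pair 6 included the chaperone gene Hsp90aa1 (1.31), the Wnt receptor gene Fzd5 (1.18), a domain inside the DNA methyltransferase gene Dnmt1 (1.12) and Actb (0.76).

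All 12 domains narrower in pair 6 were on chromosome 11. Ppp1r9b, which encodes spinophilin (94987385 to 94998566), covered 7496 and 6656 bp in 4_1, 10147 and 6593 bp in 4_C2, 4477 and 4877 bp in 6_1, and 4255 and 5162 bp in 6_C4. The pairs did not overlap, and the log2 difference was −0.96 ± 0.11 (SE, limma adjusted p = 0.00198). Chd3, a remodeller of the NuRD complex, covered 5968 and 5874 bp, 6259 and 4636 bp, 3612 and 4441 bp, and 4609 and 3990 bp (−0.71 ± 0.10, adjusted p = 0.0046). Hdac5, a histone deacetylase gene, covered 6403 and 6301 bp, 7478 and 3520 bp, 4158 and 2703 bp, and 3852 and 4714 bp, so its pairs overlapped through replicate 2 of 4_C2 (−0.86 ± 0.22, adjusted p = 0.0479). The others among the 8 largest were Eif4a3 (−0.62), Retreg3/Tubg1 (−0.54), Kdm6b/Dnah2 (−0.50), Msl1 (−0.46) and Hsd17b1/Coasy/Mlx (−0.42). Of the 8, only Ppp1r9b and Chd3 passed whichever library was left out.

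Chromosome 11 held 113 of the 552 domains (20.5%), against 9.44% of the regions in all 8 lists, and chromosome 8 held 58 (10.5%, against 5.51%). On chromosome 11 the median log2 pair difference was −0.19 over the domains and −0.26 over the other regions, and 95 of the 113 domains were below 0. Among the 847 other regions there, 130 were narrower in pair 6. The centred log2 length of these other regions had a median of 0.12 in 4_1, 0.31 in 4_C2, −0.04 in 6_1 and −0.04 in 6_C4, so that both clones of pair 4 lay above and 4_C2 farthest. Between genotypes, 85 of the 113 domains were above 0 (median 0.09, other regions 0.08). On chromosome 8 the median pair difference was 0.38 over the domains and 0.15 over the other regions. There 21 of the 58 domains (36.2%) and 10.6% of the other regions were wider in pair 6. Chromosome 6 was close to it, with a domain median of 0.37. Of its 478 regions in all 8 lists, 9 of the 19 domains and 19 other regions were wider.

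**Figure D5:**
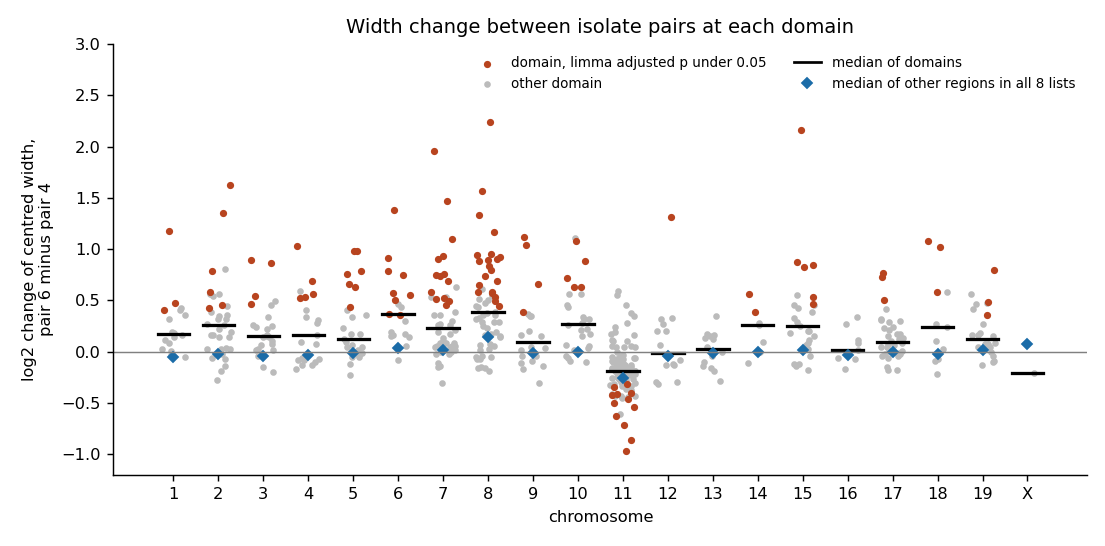
Log2 difference of pair 6 against pair 4 in centred covered length (vertical axis) for every domain, by chromosome (horizontal axis), with the domain median and the median of the other regions of each chromosome marked. Chromosome 11 lies lowest of the chromosomes with more than 1 domain, with a domain median of −0.19, and chromosome 8 highest at 0.38.

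With lengths centred within each chromosome, 77 domains were wider (13.9%) and 2 narrower (0.362%), against 272 wider (2.83%) and 94 narrower among the 9619 other regions. The domain median was then 0.05 on chromosome 11 and 0.20 on chromosome 8. Outside these 2 chromosomes, 75 of 381 domains were wider and 0 narrower (limma, the same fit over all regions, with 9 narrower at an unadjusted p under 0.05), with a median of 0.17, and 3.47% of the other regions there were wider. Under quantile normalization 44 of the 381 were wider and 7 narrower, with a median of 0.04, and 2.97% of the other regions there were wider. The lists hold no read counts, so the number of copies of these chromosomes in each clone was not read, and the cause was not tested. How many regions reach 4500 bp depends on the clone in the same way. By the mean of their own 2 libraries, 374 regions did in 4_1 (27.5% on chromosome 11), 273 in 4_C2 (40.3%), 1214 in 6_1 (12.7%) and 801 in 6_C4 (13.7%). Within chromosome 11, a stretch from 69034966 to 70006012, chosen after its values were seen, held 18 domains, among them those of Trp53, Polr2a, Chd3, Kdm6b, Eif4a1, Per1 and Dvl2. Of all domains, 72 (13.0%) lay within 20000 bp of another.

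Gene lists were described by how many of their genes with a region in all 8 lists lay in a domain, against 760 of 10145 such protein-coding genes (7.49%). Several regulators of cell identity lay in domains. Of 17 marked pluripotency genes 6 were (Gdf3, Trim71, Sox2, Mycn, Jarid2 and Sall4), of 11 primed epiblast genes 3, of 17 neuroectoderm genes 4 and of 8 endoderm genes 1 (Apoe). No domain lay at the 2 marked blood or endothelial genes or at the 3 marked fibroblast genes. Sox2, a core pluripotency and neural factor, covered 7229 and 6999 bp in 4_1, 5660 and 5569 bp in 4_C2, 8885 and 9708 bp in 6_1, and 7802 and 9605 bp in 6_C4. Trim71, an RNA-binding regulator of early embryonic cells, covered 7250 and 7359 bp, 8454 and 7489 bp, 8735 and 8645 bp, and 9536 and 8773 bp.

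Among 43 marked zinc finger and Sox regulators 16 were in domains, and among 46 Polycomb, trithorax and DNA methylation genes 13. Sall1, a zinc finger repressor gene, covered 7913 and 6274 bp in 4_1, 7308 and 7482 bp in 4_C2, 10919 and 12475 bp in 6_1, and 10617 and 11425 bp in 6_C4. Its pairs did not overlap in base pairs, but its centred difference did not pass (limma adjusted p = 0.0553). Sox11, a neural Sox gene, covered 5551 to 7013 bp over the 8 libraries. Hox genes had no domain at their 5 marked members. The pathway lists had 6 of 34 Wnt genes in domains (Fzd7, Gsk3b, Fzd5, Fzd2, Dvl2 and Tle3), 4 of 27 TGF-beta, Nodal and BMP genes (Gdf3, Smad7, Foxh1 and Ski) and 1 of 12 Notch and retinoic acid genes (Hes1). In pair 6, 3 of the 4 TGF-beta family domains were wider, against 17.4% of all domains and 4.32% of all regions: Smad7, the inhibitory Smad, by 0.59 (log2), Foxh1, the Nodal-responsive factor, by 0.46, and Apobec1/Gdf3 by 0.91. In pair 4, Foxh1 averaged 4198 bp, so it met the 4500 bp of the rule only through pair 6, while Smad7 averaged 5376 bp and Apobec1/Gdf3 6305 bp.

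Of the lists described, translation and housekeeping genes (46.3%) and splicing genes (42.6%) had the highest shares in domains. Of 41 marked translation and housekeeping genes 19 lay in domains, of 47 splicing genes 20, of 80 ribosomal protein genes 16 and of 54 replication-dependent histone genes 13, these last in 4 domains. Hnrnpa2b1 with Cbx3 covered 5346 to 8777 bp over the 8 libraries and Gapdh, the glycolytic enzyme gene, 3984 to 6693 bp. Of the 18 translation and housekeeping domains 7 differed between pairs, as did 1 of the 20 splicing and 0 of the 15 ribosomal domains, where the share over all domains was 19.6%. The medians of the genotype difference were −0.11 over the 18, 0.02 over the 20 and −0.07 over the 15, against 0.02 over all regions. Olfactory receptor genes, which these cells do not use, had none of their 1106 members in a region of all 8 lists.

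The acetylation machinery itself was also represented. Of 45 marked writers, erasers and readers 7 lay in domains, among them Ep300, the acetyltransferase p300 (3732 to 5167 bp over the 8 libraries), Kat7, the acetyltransferase Hbo1 (3944 to 6720 bp), and Brd2, a reader of acetylated histones (7187 to 8428 bp). From the Gcn5 complexes, Taf5l and Atxn7l3, subunits of SAGA, and Sf3b3 were included. Taf5l covered 3685 and 4334 bp in 4_1, 2596 and 2590 bp in 4_C2, 7106 and 5921 bp in 6_1, and 5851 and 6094 bp in 6_C4. It was wider in pair 6 (limma log2 0.69, adjusted p = 0.0203) and did not pass between genotypes (−0.24, adjusted p = 0.731). All its pair 4 lengths were below the 4500 bp of the rule. It is thus a member only through pair 6, and its p-value between pairs does not stand apart from the rule. Of 39 marked genes of the Myc network, cell cycle and p53 response 7 lay in domains, and of 31 genes of the cytoskeleton, junctions and matrix 8.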

How the data were processed

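Chromatin immunoprecipitation with an H3K9ac antibody was followed by single-read sequencing, per the labels' protocols. The authors deposited one peak list per library with chromosome, start and end in base pairs on mm10, and no height, score or read count. Bowtie 1.1.2, MACS 1.4.2 and mm10 are named per the submitters' processing notes, and for the control, cutoff and filters nothing is stated. Read depth is unknown, so values carry no counting error. Coordinates are counted from 1.

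The base pairs covered by peaks in each merged region were computed per library, taken as log2, centred on the library's median over 10171 regions present in all 8 lists, and tested with limma 3.58.1 in R 4.3.3 (genotype and isolate pair as terms, or with their interaction), Benjamini-Hochberg adjusted over all of these regions at 0.05. The design text calls the experiments independent but names no separate cultures, so p-values measure the spread between these libraries. Replicate numbers were not used as a pairing in the main fits (closing section). Whole-library values were compared by two-sided exact permutation over 70 splits, without regard to isolate pair. The fits were tested on simulated lengths.

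Gene ends came from the RefSeq gene table of GRCm38.p6, which gives no strand or exons. A domain was named by genes with an end, or a start in the promoter table, within 1000 bp. Of 2101 entries in 25 gene lists, 2100 matched. Domains and lists were chosen with earlier results of these data known. Named were the 15 widest domains, 4 either side of the length threshold, up to 8 domains called by limma in each direction, by size (or 5 with the lowest p), up to 4 members of each list, the 5 most split, most variable, richest in gene ends and widest without one, and domains of the study's question. Some further list members and the steadiest domain are named outside this rule, chosen after their values were seen, as are the chromosomes. Some domains that the rule takes are not reported here. Alternatives covered scaling, the measure of length, region and peak filters, merging distance, covariates, the variance model, the choice of members and each library left out. Python 3.11.15, pandas 2.3.3, numpy 2.4.6, SciPy 1.17.1 and matplotlib 3.10.9 were used.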

Additional observations from a re-analysis of the deposited data

Results flagged for a closer look

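A single library lay far from the 3 others of its group at 5 domains, by Dixon's criterion for 4 values, which chance meets in about 1 of 20 groups. The groups examined numbered 184, over 46 quantities. At Git1, replicate 1 of 6_1 covered 6572 bp and the other fx/fx libraries 3868 to 4240 bp. At Msl1, which is needed for acetylation of histone H4 by the MSL complex, replicate 1 of 4_C2 covered 6618 bp and the other pair 4 libraries 4799 to 4820 bp. At Gm46294, replicate 1 of 6_C4 covered 7727 bp and the other pair 6 libraries 9609 to 9739 bp. At Sirt7/Mafg, replicate 2 of 4_1 covered 8883 bp and the other pair 4 libraries 10498 to 10757 bp. At Malat1, replicate 2 of 6_1 covered 12066 bp and the other fx/fx libraries 10136 to 10170 bp. The first 4 of these domains are on chromosome 11. No domain's genotype difference passed the test for a difference between the isolate pairs.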

How the results depend on the processing

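No domain passed for genotype under any alternative run, and no result changed direction past its threshold. In place of the 108 domains called between pairs (96 wider, 12 narrower), as counts that need not hold the same domains, there were 272 without centring (270 wider, 2 narrower), 61 by outer span (53 wider), 69 with regions of at least 4 lists (63 wider, 6 narrower) and 166 of 696 domains with peaks merged across gaps of up to 1000 bp (147 wider, 19 narrower). Shares of all regions called are not given for these settings. At an unadjusted p under 0.05, 63.0% of domains and 44.9% of all regions were wider without centring, and 25.2% and 11.9% by outer span. With regions of at least 4 lists these shares were 31.0% and 17.4%, and with merged peaks 39.9% and 13.3%. Quantile normalization gave 58 wider and 37 narrower, limma-trend 7 narrower, centring by chromosome 2 narrower, and domains outside chromosomes 8 and 11 gave 0 narrower. Choosing domains on one replicate number and testing on the other gave 0 in all, 0 wider and 0 narrower both ways. Fits of 4 libraries have little power, so these 0 calls do not show that the pair difference was absent. The median log2 pair difference was 0.118 over domains chosen on number 1 and 0.106 over those chosen on number 2 (all regions −0.025 and −0.014). These fits hold the same clones, which leaves the weight of pair 6 in the choice as it was. Leaving out each library in turn gave 55 to 87 in all, 53 to 85 wider and 2 to 6 narrower, and 0 to 1 for the interaction, which also gave 1 with regions of at least 4 lists. The cause was not tested. The rule itself gave 888, 318 and 149 domains at thresholds of 4000, 5000 and 6000 bp, and 447 to 647 with a library left out. The replicate block within pairs gave 0 domains for genotype, where 28 had an unadjusted p under 0.05 as narrower and 21 as wider, and changed no call. In each clone, the centred length of replicate 2 was subtracted from that of replicate 1 at every region. These differences correlated between the 2 clones of a pair at 0.109 (pair 4) and 0.0624 (pair 6). Centring removes a shift of a whole library, so these values cannot exclude that libraries of the same number belong together. Replicate 1 held more peaks than replicate 2 in every clone (15315 and 13260 in 4_1, 14947 and 12041 in 4_C2, 20809 and 18477 in 6_1, 18932 and 17849 in 6_C4). For the 16 named domains called between pairs, 204 of 270 repeats under these alternatives still passed and 66 did not. Those named for genotype never passed. Lengths depend on the unknown depth and peak cutoff, clones and genotypes are few, and acetylation within a peak was not measured.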
